A study of Mus musculus with 9 samples.

Results

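Expression in mouse liver was examined for 9 genes whose levels differed between libraries of mice given an FGF19 protein and libraries of mice given vehicle: Blnk, Card10, Ttc38, Ephb2, Fam124a, Fam131c, Slc45a3, Tln2 and Tlcd2. They are 9 of the 28517 genes in the deposited table, and all 9 were among the 18142 genes that passed the filter on low counts. The genes were selected on their count and FPKM values, because treated and vehicle libraries separate, so every value against vehicle is given as a description with no test. The comparison of FGF19ΔKLB with FGF19WT was not itself used to pick them, but it holds the same FGF19WT libraries. Card10, Ttc38 and Fam124a separated from vehicle only with FGF19WT, so for these 3 it is not independent of the choice and is also given as a description. It was tested for the other 6, though on libraries that also served to pick them.

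The libraries are from whole liver RNA of db/db mice, in which the leptin receptor does not work and obesity and diabetes develop. All groups share that genotype, and the mice received FGF19ΔKLB, FGF19WT or PBS vehicle over 12 weeks, with 3 libraries in each group. Age, sex, dose and route are not given in the sources used here, nor is it stated whether the 3 libraries of a group are separate animals, so p-values measure the spread between these samples. In the table the FGF19ΔKLB columns are headed F19_HBS, a code whose meaning is not given in the labels.

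FGF19 is a hormone that the intestine releases after bile acids are absorbed. It acts on hepatocytes through the receptor FGFR4 with its co-receptor β-klotho, which the gene Klb encodes, and it lowers bile acid synthesis. The name FGF19ΔKLB points to that co-receptor, but the labels do not give its sequence change. The genes have no shared textbook role. Blnk encodes an adaptor that links the activated B cell receptor to phospholipase C, and Card10 encodes a scaffold that joins BCL10 and MALT1 to turn on NF-κB outside blood cells. Ephb2 encodes a receptor tyrosine kinase for ephrin-B ligands on neighbouring cells, and Tln2 encodes talin 2, which ties integrins to actin. Slc45a3 belongs to a family of sugar transporters and is best known in humans as a marker of prostate tissue. Tlcd2 encodes a membrane protein that limits how many polyunsaturated fatty acids enter membrane phospholipids. Ttc38, which has tetratricopeptide repeats, Fam124a and Fam131c are little characterised. In the deposited annotation 5 of the 9 genes carry KEGG pathways, namely Blnk with 5, Tln2 with 4, Slc45a3 with 2, and Card10 and Ephb2 with 1 each. The other 4 carry none, against 12308 of the 18142 genes past the filter, so the set lies only in part outside annotated pathways.

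The promoter windows of 4 genes are shown because their profiles differ: Blnk was higher in all 6 treated libraries, Card10 only in the FGF19WT libraries, and Ephb2 and Tlcd2 were lower in all 6. Each window runs from 250 bases before to 50 bases after the RefSeq start on GRCm38.p6 and is written along the gene. RefSeq windows were matched by symbol for 8 of the 9 genes. The windows lie at chr19:40994172-40994471 on the minus strand for Blnk, at chr15:78802993-78803292 on the minus strand for Card10, at chr4:136835963-136836262 on the minus strand for Ephb2 and at chr11:75467800-75468099 on the plus strand for Tlcd2. Capitals mark matches on either strand to 6 motifs. The core that ETS factors bind was searched as CCGGAA. The AP-1 motif was searched as TGANTCA. The motif of TCF and LEF factors was searched as CTTTGAT. The E-box that Myc and its relatives bind was searched as CACGTG. The hexamer that many nuclear receptors bind was searched as AGGTCA. The TATA box was searched as TATAAA.
Blnk: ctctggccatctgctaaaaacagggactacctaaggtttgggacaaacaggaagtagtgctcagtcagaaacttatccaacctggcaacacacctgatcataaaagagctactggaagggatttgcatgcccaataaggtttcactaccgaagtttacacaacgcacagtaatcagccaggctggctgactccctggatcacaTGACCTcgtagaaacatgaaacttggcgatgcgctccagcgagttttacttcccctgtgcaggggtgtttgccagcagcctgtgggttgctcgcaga
Card10: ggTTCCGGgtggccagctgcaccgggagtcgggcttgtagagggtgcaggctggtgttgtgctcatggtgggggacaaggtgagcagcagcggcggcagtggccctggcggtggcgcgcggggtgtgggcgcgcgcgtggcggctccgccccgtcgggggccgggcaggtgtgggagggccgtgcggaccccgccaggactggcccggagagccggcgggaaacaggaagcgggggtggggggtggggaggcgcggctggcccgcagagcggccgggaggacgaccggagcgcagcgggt
Ephb2: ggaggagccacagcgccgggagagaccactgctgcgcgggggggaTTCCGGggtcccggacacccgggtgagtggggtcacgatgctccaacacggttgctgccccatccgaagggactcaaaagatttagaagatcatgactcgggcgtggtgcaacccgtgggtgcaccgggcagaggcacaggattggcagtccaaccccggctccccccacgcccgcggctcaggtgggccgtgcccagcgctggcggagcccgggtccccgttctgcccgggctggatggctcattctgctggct
Tlcd2: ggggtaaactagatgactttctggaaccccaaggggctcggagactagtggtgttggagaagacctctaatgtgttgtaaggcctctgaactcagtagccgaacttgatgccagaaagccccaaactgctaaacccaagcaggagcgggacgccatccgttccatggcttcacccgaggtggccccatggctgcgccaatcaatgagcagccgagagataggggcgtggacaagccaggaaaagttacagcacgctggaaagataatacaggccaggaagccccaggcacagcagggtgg
In the Blnk window the capitals are AGGTCA read on the opposite strand, 47 bases before the start. In the Card10 and Ephb2 windows they are CCGGAA read on the opposite strand, 248 and 205 bases before the start. The Tlcd2 window holds none of the 6. Over the 9 windows of the 8 genes, since Slc45a3 has a pair of starts, AGGTCA was found in 3 and CCGGAA in 2. These hexamers are frequent: of all 32851 windows of this length, 16.3% hold AGGTCA and 14.9% hold CCGGAA. The TATA box was found in 1 of the 9 windows and in 13.6% of all windows. The AP-1, TCF/LEF and E-box motifs were found in 0 of the 9, and in 7.81%, 3.73% and 7.15% of all windows. No motif overlapped another in these windows.

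Libraries held 65.1 to 73.3 M counts each, and a count of 4 was 4.45 to 5.54 times as frequent as a count of 3 or 5, so 1 read pair stands for about 4 counts. FGF19WT libraries 2 and 3 stand apart from the other 7: both lay above or both below them in 37.4% of genes past the filter. Of the 9 genes, 5 did so, with Blnk, Card10 and Ttc38 above and Fam124a and Fam131c below. The fold changes of the 9 genes that involve FGF19WT are therefore also given without these libraries. So are those medians of gene lists with FGF19WT that are printed below, which do not cover every list and comparison. Without FGF19WT library 1, which lay apart from them, calls by edgeR were frequent: 10.9% of 19025 genes were higher and 9.3% lower in FGF19ΔKLB than in FGF19WT, and 13.1% were higher and 14.3% lower in FGF19WT than in vehicle (27.4% in all). DESeq2 over 9 libraries called 4.6% of genes for FGF19ΔKLB against FGF19WT, 9.61% for FGF19WT against vehicle and 2.04% for FGF19ΔKLB against vehicle. At an unadjusted p under 0.05, edgeR over 9 libraries had 2267, 3412 and 1515 of 18142 genes in the same order of comparisons. Counts by these settings, and counts at that unadjusted p, are to be read against those of all genes. Hepatocyte markers (12 genes) summed to 235200 to 335800 CPM in FGF19ΔKLB libraries, 124900 to 231800 in FGF19WT libraries and 126600 to 185000 in vehicle libraries, and none was at 0. CPM (levels on the counts-per-million scale) are corrected for library size and composition, and in whole tissue fewer cells of a type and less RNA per cell cannot be told apart.

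**Figure D1:**
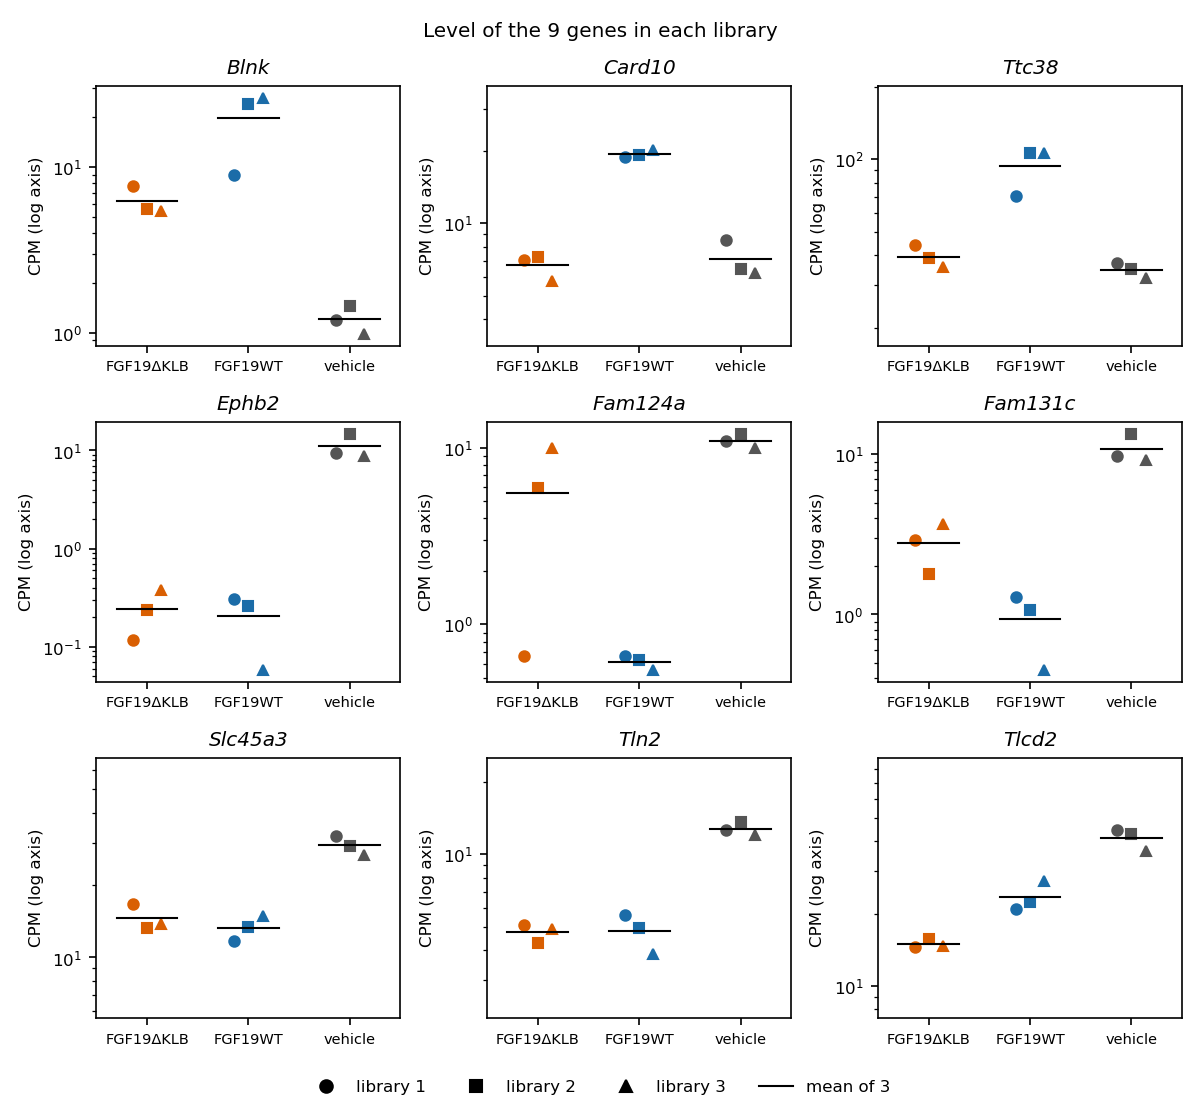
Level of the 9 genes in each library, as CPM on a log axis, with a line at the mean of 3 libraries. Blnk lies above vehicle and Ephb2, Fam131c, Slc45a3, Tln2 and Tlcd2 lie below it in all 6 treated libraries, while Card10, Ttc38 and Fam124a have FGF19ΔKLB libraries within or overlapping the vehicle range.

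The treated libraries did not separate from vehicle in the same way for all 9 genes. All 6 treated libraries lay outside the vehicle range in 6 of the 9 genes, as they did in 10.3% of all genes past the filter. The 6 are Blnk, which was higher, and Ephb2, Fam131c, Slc45a3, Tlcd2 and Tln2, which were lower. The FGF19ΔKLB libraries alone lay outside the vehicle range in the same 6 genes (24.6% of all genes), and the FGF19WT libraries alone in all 9 (22.6% of all genes). Nothing is read from these counts, because separation from vehicle was what picked the genes. Over all genes past the filter, edgeR called 20 (0.11%) for FGF19WT against vehicle, 7 of the 9 genes among them, and 2 (0.011%) for FGF19ΔKLB against vehicle, 1 of the 9 among them, from which nothing is read for the same reason. Both comparisons with vehicle also use the same 3 vehicle libraries.

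Blnk stood at 7.67, 5.61 and 5.44 CPM in FGF19ΔKLB libraries 1, 2 and 3, at 9.03, 24.2 and 26.3 CPM in FGF19WT libraries, and at 1.19, 1.45 and 0.985 CPM in vehicle libraries. The 3 groups do not overlap, and FGF19WT library 1 lies close to the highest FGF19ΔKLB library. The lowest treated library was 3.75 times the highest vehicle library. Against vehicle the log2 fold change was 2.37 (SE 0.40) with FGF19ΔKLB and 4.04 (SE 0.42) with FGF19WT, or 2.90 without FGF19WT libraries 2 and 3. Blnk lies on chromosome 19 from 40928927 to 40994535 (GRCm38), with 3 annotated transcripts.

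Blnk is best known from B cells, and the B and plasma cell markers did not follow it. Their summed level over 13 genes was 33.1, 72.3 and 38.7 CPM in FGF19ΔKLB libraries, 32.9, 6.45 and 4.06 CPM in FGF19WT libraries and 248, 119 and 105 CPM in vehicle libraries. The libraries with the most Blnk, FGF19WT 2 and 3, had the lowest sums, and no marker was at 0 in all libraries of a group. Blnk is also made by some myeloid cells. The 12 Kupffer cell and macrophage markers summed to 237, 299 and 270 CPM in FGF19ΔKLB libraries and 283, 349 and 415 CPM in vehicle libraries. In FGF19WT libraries they summed to 286, 95.6 and 42.3 CPM, again lowest in FGF19WT libraries 2 and 3. The 12 pericentral hepatocyte markers were highest in these libraries, at 32200 and 28710 CPM, against 4959 CPM in FGF19WT library 1. They summed to 2054 to 3475 CPM with FGF19ΔKLB and 5023 to 8904 CPM with vehicle. Which cells made Blnk was not tested. Of Blnk's relatives, Lcp2, the corresponding adaptor of T cells and myeloid cells, had a log2 fold change of −0.34 (SE 0.46) with FGF19ΔKLB and −0.85 (SE 0.47) with FGF19WT against vehicle, and Clnk was below the filter.

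**Figure D2:**
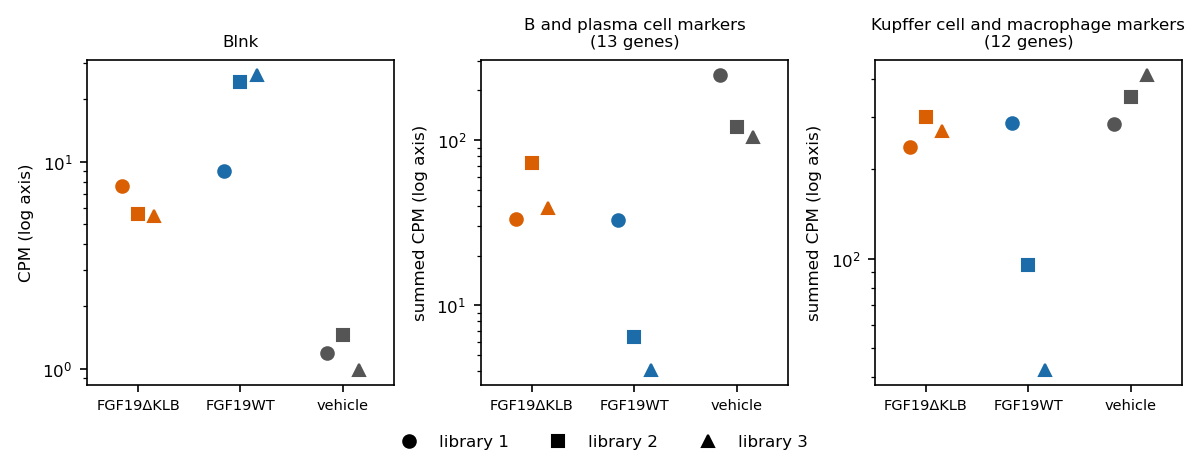
Blnk beside the summed B and plasma cell markers (13 genes) and Kupffer cell and macrophage markers (12 genes), as CPM on log axes, 1 point a library. In FGF19WT libraries 2 and 3 Blnk is at its highest, 24.2 and 26.3 CPM, and both marker sums are at their lowest.

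Among 22 other genes of B cell receptor signalling, edgeR called 0 in any of the 3 comparisons. At an unadjusted p under 0.05 there were 2 for FGF19ΔKLB against FGF19WT, 4 for FGF19WT against vehicle and 0 for FGF19ΔKLB against vehicle. DESeq2 called 0 for FGF19ΔKLB against FGF19WT, 1 lower for FGF19WT against vehicle and 0 for FGF19ΔKLB against vehicle. Log2 fold changes of FGF19ΔKLB over FGF19WT were positive in 16 of the 22, with a median of 0.36. Over all genes 50.86% were positive, with a median of 0.01. Ptpn6, a phosphatase that restrains the receptor, had 0.36 (SE 0.15), and Vav1, an exchange factor that binds the BLNK protein, had 0.97 (SE 0.47). Against vehicle 8 of the 22 were positive with FGF19ΔKLB and 6 with FGF19WT, with medians of −0.17 and −0.37. Of all genes, 50.23% and 49.65% were positive in these comparisons. Without FGF19WT libraries 2 and 3 the medians turned to −0.23 for FGF19ΔKLB against FGF19WT and 0.26 for FGF19WT against vehicle, with 0 calls. Leaving out FGF19WT library 1, edgeR called 4 of the 22 higher in FGF19ΔKLB than in FGF19WT and 6 lower in FGF19WT than in vehicle, against 10.9% and 14.3% of all genes.

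Card10 stood at 7.07, 7.27 and 5.73 CPM in FGF19ΔKLB libraries, at 18.9, 19.2 and 20.1 CPM in FGF19WT libraries, and at 8.53, 6.46 and 6.24 CPM in vehicle libraries. The FGF19WT libraries lie together above the other 6, and the FGF19ΔKLB libraries overlap the vehicle libraries. The log2 fold change against vehicle was −0.08 (SE 0.17, 95% interval −0.47 to 0.31) with FGF19ΔKLB and 1.45 (SE 0.17) with FGF19WT, or 1.42 without FGF19WT libraries 2 and 3. The level of Card10 in FGF19WT library 1 was thus close to that in FGF19WT libraries 2 and 3. This was not so for markers that set those libraries apart. The 12 pericentral hepatocyte markers summed to 4959 CPM in FGF19WT library 1 and to 32200 and 28710 CPM in FGF19WT libraries 2 and 3, against 5023 to 8904 CPM in vehicle libraries. Card10 lies on chromosome 15 from 78775138 to 78803042.

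The 22 other genes of the CARD-BCL10-MALT1 complex and NF-κB had 0 calls by edgeR in each comparison. At an unadjusted p under 0.05 there were 7 for FGF19ΔKLB against FGF19WT and 4 in each comparison with vehicle, and DESeq2 called 3 lower in FGF19ΔKLB than in FGF19WT, 2 higher in FGF19WT than in vehicle and 0 between FGF19ΔKLB and vehicle. Without FGF19WT library 1, edgeR called 4 of the 22 lower in FGF19ΔKLB than in FGF19WT and 4 higher in FGF19WT than in vehicle, against 9.3% and 13.1% of all genes. The log2 fold change of FGF19ΔKLB over FGF19WT was negative in 18 of the 22, as for Card10, with a median of −0.28. Over all genes it was positive in 50.86%, with a median of 0.01. Ikbkb, a kinase that releases NF-κB, stood at 50.6 ± 5.49 CPM in FGF19ΔKLB libraries, 79.9 ± 8.36 CPM in FGF19WT libraries and 44.0 ± 7.31 CPM in vehicle libraries (SD, n = 3 each). Its log2 fold change between FGF19ΔKLB and FGF19WT was −0.66 (95% interval −1.04 to −0.28, adjusted p = 0.237 in edgeR). Relb, an NF-κB subunit, had −1.60 (95% interval −2.62 to −0.57, adjusted p = 0.251 in edgeR), and Nfkb1, another subunit, had −0.47 (95% interval −0.78 to −0.16, adjusted p = 0.255 in edgeR). Unlike Card10, Relb was high only in FGF19WT libraries 2 and 3, at 6.40 and 8.29 CPM. In FGF19WT library 1 it stood at 2.26 CPM, under the vehicle libraries at 2.43 to 3.03 CPM. Tnfaip3, also on the list, had −0.81 between FGF19ΔKLB and FGF19WT (95% interval −1.55 to −0.08, adjusted p = 0.356 in edgeR). Against vehicle Tnfaip3 had −0.21 (SE 0.32) with FGF19WT, where Card10 was higher, and −1.03 (SE 0.32) with FGF19ΔKLB. Against vehicle the median of the list was −0.16 with FGF19ΔKLB and 0.03 with FGF19WT. Without FGF19WT libraries 2 and 3 the median was −0.24 for FGF19ΔKLB against FGF19WT and −0.02 for FGF19WT against vehicle.

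Ephb2 stood at 0.117, 0.239 and 0.377 CPM in FGF19ΔKLB libraries, at 0.308, 0.259 and 0.0581 CPM in FGF19WT libraries, and at 9.48, 14.7 and 8.75 CPM in vehicle libraries. The treated libraries hold few reads of this gene: 8, 16 and 23 counts with FGF19ΔKLB and 21, 21 and 4 counts with FGF19WT, against 710, 1005 and 684 counts with vehicle. The gap between treated and vehicle libraries was the widest of the 9 genes, and the highest treated library held 0.0431 times the level of the lowest vehicle library. On the log2 scale the change against vehicle was −5.49 (SE 0.67) with FGF19ΔKLB and −5.70 (SE 0.67) with FGF19WT, or −5.15 without FGF19WT libraries 2 and 3. At 4 counts a read pair, the low values rest on a handful of read pairs, so differences among the 6 treated libraries are not readable at this depth. Ephb2 lies on chromosome 4 from 136647539 to 136835988.

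The summed level of B and plasma cell markers was also lower in all 6 treated libraries, 4.06 to 72.3 CPM, than in vehicle libraries, 105 to 248 CPM. Igkc made up most of that sum in vehicle libraries, at 189, 95.8 and 79.8 CPM. Of the 12 past the filter, 10 had a negative log2 fold change against vehicle and 2 a positive one, with each protein. Over all genes 50.23% were positive with FGF19ΔKLB and 49.65% with FGF19WT. Ighm overlapped vehicle, at 3.83 to 18.3 CPM with FGF19ΔKLB and 0.784 to 11.9 CPM with FGF19WT, against 6.54 to 7.50 CPM. T and NK cell markers (12 genes) also summed lower, at 2.79 to 4.80 CPM with FGF19ΔKLB and 1.94 to 6.20 CPM with FGF19WT. In vehicle libraries they summed to 9.36 to 19.6 CPM. Stellate cell markers (10 genes) summed to 121 to 248 CPM with FGF19ΔKLB and 218 to 253 CPM with FGF19WT, against 291 to 366 CPM with vehicle. Other lists overlapped vehicle. Sinusoidal endothelial markers (10 genes) summed to 207 CPM in FGF19WT library 1, against 165 to 189 CPM with vehicle. Cholangiocyte markers (10 genes) reached 71.9 CPM with FGF19ΔKLB, against 64.0 to 82.2 CPM with vehicle. Kupffer cell and macrophage markers reached 299 CPM with FGF19ΔKLB, against 283 to 415 CPM with vehicle. The part of any of these cells in the Ephb2 result was not tested.

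Other Eph receptors were looked at beside Ephb2. Of 13 listed, 9 were in the table and 8 passed the filter, and edgeR called 0 of the 8 in any comparison (at an unadjusted p under 0.05, 0 for FGF19ΔKLB against FGF19WT, 2 for FGF19WT and 0 for FGF19ΔKLB against vehicle). DESeq2 called 1 of them, lower in FGF19WT than in vehicle. Without FGF19WT library 1, edgeR called 2 of the 8 higher in FGF19ΔKLB than in FGF19WT and 3 lower in FGF19WT than in vehicle, against 10.9% and 14.3% of all genes. The median log2 fold change against vehicle was −0.36 with FGF19ΔKLB and −0.93 with FGF19WT, or −0.24 without FGF19WT libraries 2 and 3. Epha3 stood at 0.117, 0.314 and 0.0655 CPM in FGF19ΔKLB libraries, 0.0586, 0.0987 and 0 CPM in FGF19WT libraries and 0.748, 0.176 and 1.18 CPM in vehicle libraries. Its FGF19ΔKLB libraries overlap vehicle, and its log2 fold change against vehicle was −2.07 (SE 1.07, adjusted p = 0.674 in edgeR) with FGF19ΔKLB and −3.68 (SE 1.17, adjusted p = 0.161 in edgeR) with FGF19WT. Epha1 had 0.48 (SE 0.28) and −0.15 (SE 0.28) in the same comparisons. The 8 ephrins, the ligands of these receptors, were split evenly in sign in each comparison, with medians of −0.05 for FGF19ΔKLB and 0.05 for FGF19WT against vehicle (0.05 too without FGF19WT libraries 2 and 3), and edgeR called 0 of them (1 at an unadjusted p under 0.05 in each comparison). DESeq2 called 1 ephrin, higher in FGF19WT than in vehicle. With FGF19WT library 1 left out, edgeR called 1 ephrin higher and 1 lower in FGF19ΔKLB than in FGF19WT, and 1 higher and 2 lower in FGF19WT than in vehicle, against the shares of all genes given above.

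Tln2 stood at 5.09, 4.26 and 4.90 CPM in FGF19ΔKLB libraries, at 5.61, 4.92 and 3.85 CPM in FGF19WT libraries, and at 12.6, 13.6 and 12.1 CPM in vehicle libraries. The 6 treated libraries mix with each other and lie under every vehicle library. Against vehicle the log2 fold change was −1.42 (SE 0.19) with FGF19ΔKLB and −1.41 (SE 0.19) with FGF19WT, or −1.18 without FGF19WT libraries 2 and 3. Tln2 lies on chromosome 9 from 67217087 to 67559703 and spans 342.6 kb, the longest of the 9 genes.

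Of 33 other genes of talin and integrin adhesion, edgeR called 0 in any comparison. At an unadjusted p under 0.05 there were 2 for FGF19ΔKLB against FGF19WT, 7 for FGF19WT against vehicle and 4 for FGF19ΔKLB against vehicle. DESeq2 called 1 for FGF19ΔKLB against FGF19WT, 4 for FGF19WT against vehicle and 2 for FGF19ΔKLB against vehicle. Medians against vehicle were −0.04 with FGF19ΔKLB and −0.24 with FGF19WT, or −0.00 without FGF19WT libraries 2 and 3. Tns1, which encodes tensin 1 at integrin adhesions, stood at 80.6, 99.1 and 133.9 CPM in FGF19ΔKLB libraries, 28.8, 58.2 and 18.8 CPM in FGF19WT libraries and 144.6, 117.7 and 111.8 CPM in vehicle libraries. Unlike Tln2, Tns1 had FGF19ΔKLB library 3 within the vehicle range, and its log2 fold change of FGF19ΔKLB over FGF19WT was 1.57 (95% interval 0.67 to 2.46, adjusted p = 0.237 in edgeR). When FGF19WT library 1 was left out, edgeR called 8 of the 33 higher in FGF19ΔKLB than in FGF19WT, and 14 lower and 2 higher in FGF19WT than in vehicle, where all genes had 10.9%, 14.3% and 13.1%.

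Slc45a3 stood at 16.7, 13.3 and 13.8 CPM in FGF19ΔKLB libraries, at 11.8, 13.3 and 14.8 CPM in FGF19WT libraries, and at 32.0, 29.1 and 26.7 CPM in vehicle libraries. As for Tln2, the treated libraries mix and lie under every vehicle library. The log2 fold change against vehicle was −1.0 (SE 0.15) with FGF19ΔKLB and −1.14 (SE 0.15) with FGF19WT, or −1.32 without FGF19WT libraries 2 and 3. Its family member Slc45a4, another sugar transporter, stood at 7.49 ± 1.25 CPM in FGF19ΔKLB libraries, 7.91 ± 1.32 CPM in FGF19WT libraries and 7.22 ± 0.425 CPM in vehicle libraries (SD, n = 3 each). Its log2 fold change against vehicle was 0.05 (95% interval −0.40 to 0.51) with FGF19ΔKLB and 0.13 (95% interval −0.32 to 0.58) with FGF19WT. Slc45a3 lies on chromosome 1 from 131962967 to 131982969, and Gm29103, which overlaps it on the same strand, was below the filter.

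Tlcd2 stood at 14.6, 15.7 and 14.6 CPM in FGF19ΔKLB libraries, at 20.8, 22.3 and 27.3 CPM in FGF19WT libraries, and at 44.7, 42.9 and 36.6 CPM in vehicle libraries. The 3 groups do not overlap, and here FGF19ΔKLB lies farther from vehicle than FGF19WT does. On the log2 scale the change against vehicle was −1.47 (SE 0.15) with FGF19ΔKLB and −0.82 (SE 0.15) with FGF19WT, or −0.99 without FGF19WT libraries 2 and 3. Its closest relative Tlcd1 had 0.22 (95% interval −0.14 to 0.59) with FGF19ΔKLB and −0.18 (95% interval −0.54 to 0.19) with FGF19WT against vehicle. Of 12 measured genes with the TLC domain, which ceramide synthases also carry, edgeR called 0 in any comparison. At an unadjusted p under 0.05 there were 1 for FGF19ΔKLB against FGF19WT, 3 for FGF19WT against vehicle and 2 for FGF19ΔKLB against vehicle, and DESeq2 called 1, higher in FGF19WT than in vehicle. Of the 12, edgeR without FGF19WT library 1 called 1 higher and 2 lower in FGF19ΔKLB than in FGF19WT, and 3 higher and 2 lower in FGF19WT than in vehicle, against 20.2% and 27.4% of all genes in either direction.

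Tlcd2 lies on chromosome 11 from 75461715 to 75470657 and overlaps Mir22hg, the host gene of the microRNA miR-22, on the same strand. The overlap comes from 1 noncoding Tlcd2 transcript that starts inside Mir22hg, 6335 bases before the RefSeq start of Tlcd2 at 75468050. The pair shares 206 exonic bases, 10.6% of the 1936 exonic bases of Tlcd2, and 0 of its 930 coding bases. Reads in the shared bases cannot be told apart. Mir22hg stood at 23.2, 25.5 and 23.4 CPM in FGF19ΔKLB libraries, at 32.5, 25.5 and 30.4 CPM in FGF19WT libraries, and at 39.8, 29.0 and 38.0 CPM in vehicle libraries. Its FGF19WT libraries touch the FGF19ΔKLB libraries and overlap the vehicle libraries. Its FGF19ΔKLB libraries lie below every vehicle library, as those of Tlcd2 do. Its log2 fold change against vehicle was −0.57 (SE 0.16) with FGF19ΔKLB and −0.27 (SE 0.16) with FGF19WT, nearer to 0 than that of Tlcd2 in both. The ratio of Tlcd2 to Mir22hg, each in FPKM (per length and depth), was 0.624, 0.612 and 0.619 in FGF19ΔKLB libraries, 0.636, 0.865 and 0.892 in FGF19WT libraries and 1.12, 1.47 and 0.956 in vehicle libraries. Tlcd2 was picked for its separation from vehicle, which such a ratio carries over, so nothing is read from the order of the groups in it.

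**Figure D3:**
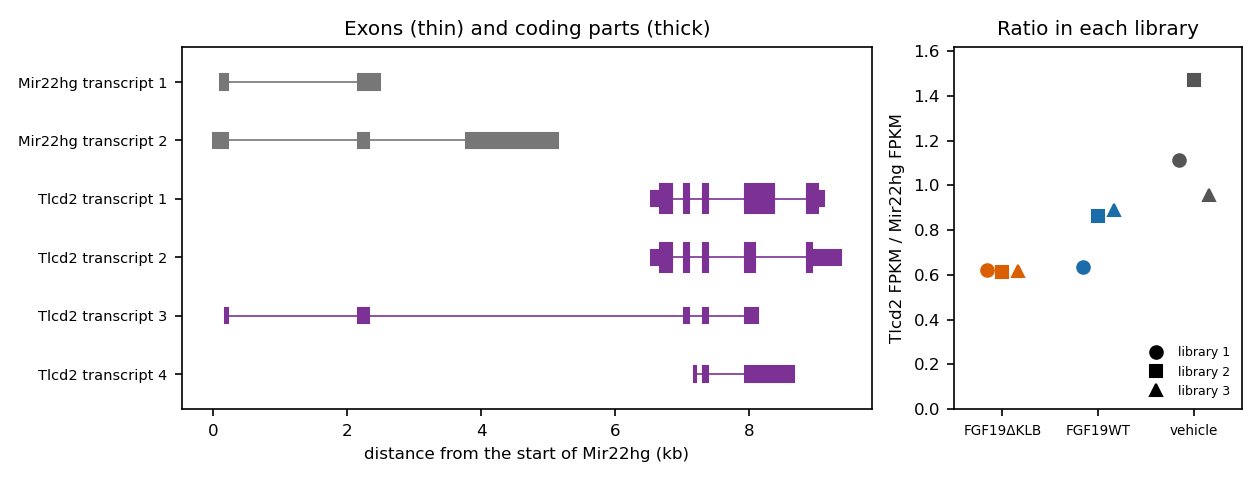
Left, annotated transcripts of Mir22hg and Tlcd2 by distance in kb from the start of Mir22hg, with exons thin and coding parts thick. Right, the ratio of Tlcd2 to Mir22hg FPKM in each library; the treated libraries lie between 0.612 and 0.892 and the vehicle libraries between 0.956 and 1.47.

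Ttc38 stood at 43.9, 38.8 and 35.6 CPM in FGF19ΔKLB libraries, at 70.2, 106.1 and 106.2 CPM in FGF19WT libraries, and at 37.0, 35.0 and 32.0 CPM in vehicle libraries. The FGF19WT libraries lie above the other 6, and the FGF19ΔKLB libraries overlap the vehicle libraries. Against vehicle the log2 fold change was 0.19 (SE 0.18, 95% interval −0.24 to 0.61) with FGF19ΔKLB and 1.44 (SE 0.19) with FGF19WT, or 1.02 without FGF19WT libraries 2 and 3. Ttc38 lies on chromosome 15 from 85832306 to 85858822, and Gtse1, a gene of the G2 phase of the cell cycle, begins 0.923 kb beyond its end on the same strand. Gtse1 stood at 0.748, 0.598 and 1.64 CPM in FGF19ΔKLB libraries, 0.337, 8.51 and 10.1 CPM in FGF19WT libraries and 0.441, 0.835 and 0.780 CPM in vehicle libraries. Unlike Ttc38, Gtse1 was not higher in FGF19WT library 1 than in vehicle.

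Fam124a stood at 0.660, 5.94 and 10.1 CPM in FGF19ΔKLB libraries, at 0.659, 0.629 and 0.552 CPM in FGF19WT libraries, and at 10.9, 12.0 and 9.95 CPM in vehicle libraries. The FGF19WT libraries are all low, while the FGF19ΔKLB libraries spread over the whole range: library 1 is level with FGF19WT library 1, at 45 counts each, and library 3 lies inside the vehicle range. The log2 fold change against vehicle was −0.98 (SE 0.71, 95% interval −2.60 to 0.64) with FGF19ΔKLB and −4.16 (SE 0.81) with FGF19WT, or −4.05 without FGF19WT libraries 2 and 3. Fam124a lies on chromosome 14 from 62555737 to 62606039 and overlaps Gm4131, which was below the filter, on the opposite strand.

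Fam131c stood at 2.90, 1.79 and 3.67 CPM in FGF19ΔKLB libraries, at 1.29, 1.06 and 0.450 CPM in FGF19WT libraries, and at 9.83, 13.4 and 9.26 CPM in vehicle libraries. The 3 groups do not overlap, and FGF19ΔKLB lies between FGF19WT and vehicle. On the log2 scale the change against vehicle was −1.96 (SE 0.42) with FGF19ΔKLB and −3.53 (SE 0.45) with FGF19WT, or −3.07 without FGF19WT libraries 2 and 3. Fam131c lies on chromosome 4 from 141368220 to 141384175. Of the relatives of these genes, Fam131a passed the filter and Fam124b and Fam131b did not.

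**Figure D4:**
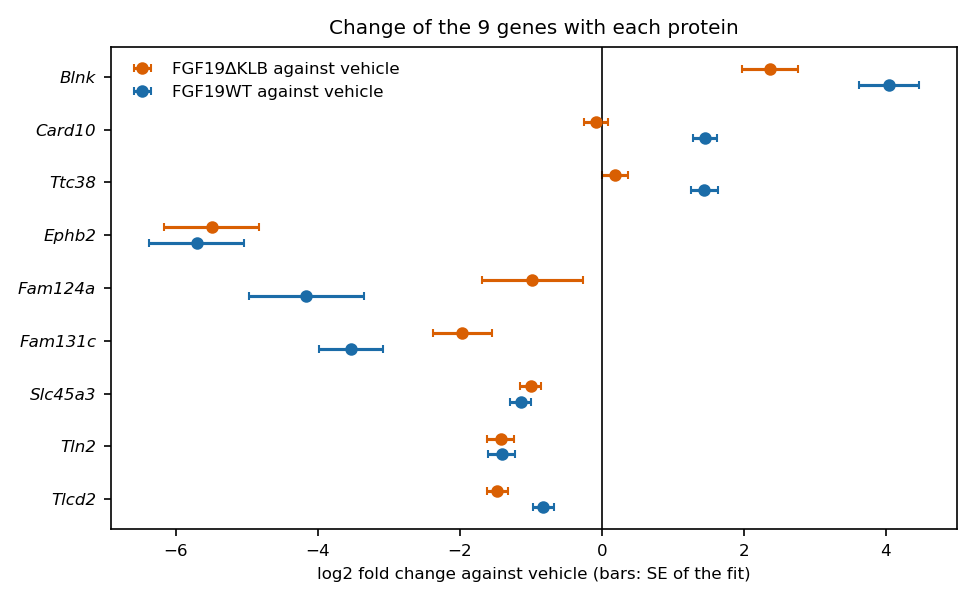
Log2 fold change of the 9 genes against vehicle with FGF19ΔKLB and with FGF19WT, with bars for the SE of the fit. Ephb2, Slc45a3 and Tln2 have values side by side, Card10 (−0.08) and Ttc38 (0.19) lie near 0 with FGF19ΔKLB, Fam124a has −0.98 with a wide error there, and both sets of values share the 3 vehicle libraries.

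The comparison of FGF19ΔKLB with FGF19WT sets the altered protein beside the natural one. In 6 of the 9 genes the FGF19ΔKLB and FGF19WT libraries did not overlap, against 13.5% of all genes past the filter, though for Fam124a the groups touch and for Card10, Ttc38 and Fam124a nothing is read from it. The FGF19ΔKLB libraries lay on the low side in Blnk, Card10, Tlcd2 and Ttc38 and on the high side in Fam124a and Fam131c. At an adjusted p under 0.05 edgeR called 0 of the 18142 genes (0.0%), although 2267 had an unadjusted p under 0.05. DESeq2 called 834 genes (4.6%), limma on log2(FPKM + 1) called 0 and limma on log2(FPKM + 0.1) called 1.

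Card10, described without a test, had a log2 fold change of FGF19ΔKLB over FGF19WT of −1.54 (SE 0.18). Its mean was 6.69 ± 0.834 CPM in FGF19ΔKLB libraries and 19.4 ± 0.658 CPM in FGF19WT libraries (SD, n = 3 each). Ttc38, also without a test, had −1.26 (SE 0.19), with 39.4 ± 4.19 CPM in FGF19ΔKLB libraries and 94.2 ± 20.7 CPM in FGF19WT libraries. Both genes had FGF19ΔKLB levels that overlapped vehicle. Blnk had −1.67 (95% interval −2.54 to −0.80) and Tlcd2 −0.65 (95% interval −0.98 to −0.32), each with an adjusted p of 0.237 in edgeR. Blnk was thus nearer to vehicle with FGF19ΔKLB than with FGF19WT, and Tlcd2 farther from it.

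Fam131c had 1.58 (95% interval 0.62 to 2.54), with an adjusted p of 0.237 in edgeR. Fam124a, without a test, had 3.17 (SE 0.78). The wide error of Fam124a goes with FGF19ΔKLB libraries that ran from 0.660 to 10.1 CPM. In the other 3 genes the FGF19ΔKLB and FGF19WT libraries overlapped. For Tln2 the log2 fold change was −0.01 (95% interval −0.44 to 0.42, adjusted p = 0.984 in edgeR) and for Slc45a3 it was 0.13 (95% interval −0.21 to 0.48, adjusted p = 0.733 in edgeR). For Ephb2 it was 0.22, with an interval from −1.16 to 1.60 (adjusted p = 0.901 in edgeR), which is 0.448-fold to 3.02-fold and far wider than for Tln2 or Slc45a3.

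**Figure D5:**
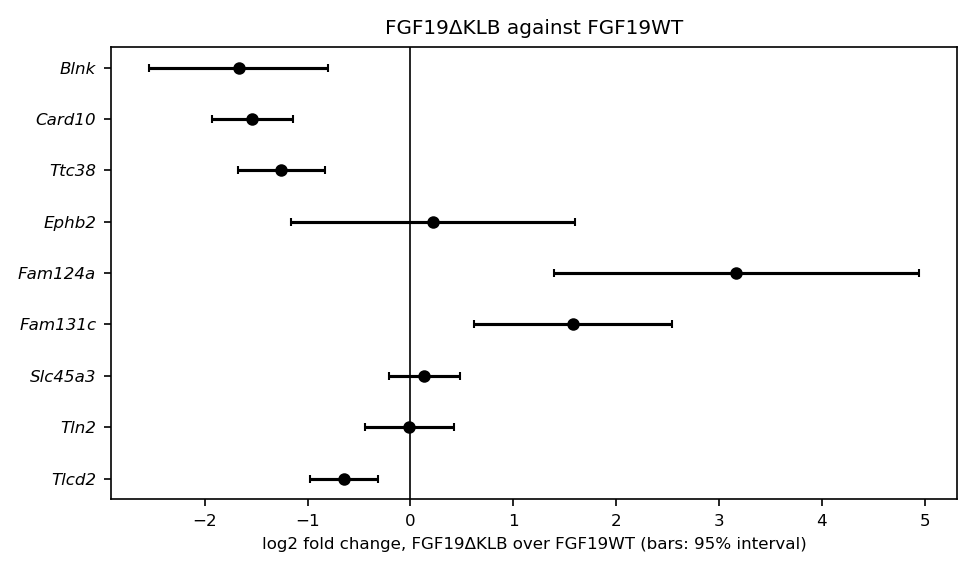
Log2 fold change of FGF19ΔKLB over FGF19WT for the 9 genes, with 95% intervals from the edgeR fit over 9 libraries. The intervals of Blnk and Tlcd2 lie below 0 and that of Fam131c above it, while no adjusted p over all genes was under 0.05. Card10, Ttc38 and Fam124a are shown as a description, and nothing is read from where their intervals lie.

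The calls depend on FGF19WT library 1. Without it, edgeR called 3846 of 19025 genes (20.2%). Of the 6 genes tested, 3 were among them: Blnk (log2 fold change −2.01, adjusted p = 0.000643), Tlcd2 (−0.72, adjusted p = 0.0105) and Fam131c (1.88, adjusted p = 0.0199). DESeq2 over all 9 libraries called the same 3. In each of the 3, the library left out was the FGF19WT library nearest to the FGF19ΔKLB libraries. Leaving that library out widened the gap between FGF19ΔKLB and FGF19WT. Over all 9 libraries edgeR gave each of the 3 an adjusted p of 0.237. The libraries used also served to pick the genes, so these calls are not independent of that choice and nothing is read from them. For the 3 genes given as a description, the log2 fold change without FGF19WT library 1 was −1.55 for Card10, −1.42 for Ttc38 and 3.24 for Fam124a. Fam124a had 3.71 without FGF19ΔKLB library 1, and edgeR called it alone of 19030 genes there (0.00525%), from which nothing is read. Without FGF19WT libraries 2 and 3, which leaves 1 FGF19WT library that is assumed to vary like the other groups, 0 of the 6 tested genes were called by edgeR, and 7 genes in all. The log2 fold change was then −1.50 for Card10, 3.07 for Fam124a, −0.54 for Blnk, −0.84 for Ttc38, −0.48 for Tlcd2 and 1.11 for Fam131c. It was −0.34 for Ephb2, 0.31 for Slc45a3 and −0.24 for Tln2. The difference between FGF19ΔKLB and FGF19WT in Card10 was thus about as large against FGF19WT library 1 alone, and that in Blnk was smaller.

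Levels can be set side by side between genes only per length, in FPKM. In FGF19ΔKLB libraries the order ran from Ttc38 (8.69 ± 1.33) and Tlcd2 (6.52 ± 0.650) through Slc45a3 (3.46 ± 0.518) to Tln2 (0.217 ± 0.0181) and Ephb2 (0.0154 ± 0.00757; SD, n = 3 each). Fam131c, Card10, Fam124a and Blnk stood between Slc45a3 and Tln2, at 1.62, 1.15, 1.04 and 0.880 FPKM, and their neighbours in that order overlap. In FGF19WT libraries Ttc38 (23.9 ± 6.69) and Tlcd2 (11.7 ± 1.95) again came first, Card10, Slc45a3 and Blnk overlapped at 3.77, 3.60 and 3.25, and Fam131c (0.619), Tln2 (0.250), Fam124a (0.132) and Ephb2 (0.0155) followed without overlap. In vehicle libraries Tlcd2 came first (20.2 ± 1.52), Ttc38, Slc45a3 and Fam131c overlapped in turn at 8.53, 7.76 and 7.11, and Fam124a (2.35), Card10 (1.35), Ephb2 (0.818), Tln2 (0.656) and Blnk (0.188) followed without overlap. Blnk thus stood last of the 9 in vehicle libraries, and Ephb2 stood last in both treated groups.

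The genes lie on 7 chromosomes, and their neighbours were asked for similar values. Among the 18 nearest measured genes on either side, edgeR called 0 in any comparison. At an unadjusted p under 0.05 there were 5 for FGF19ΔKLB against FGF19WT, 3 for FGF19WT against vehicle and 0 for FGF19ΔKLB against vehicle, and DESeq2 called 2, 1 and 0 in that order. With FGF19WT library 1 left out, edgeR called 3 of the 18 higher and 3 lower in FGF19ΔKLB than in FGF19WT, and 3 higher and 5 lower in FGF19WT than in vehicle, where it called 20.2% and 27.4% of all genes. The median size of their log2 fold changes was 0.29, 0.62 and 0.29 in the same comparisons, beside 0.36, 0.44 and 0.29 over all genes. Dntt, which encodes the terminal transferase of lymphocyte precursors and lies 34.7 kb from Blnk, stood at 8.48, 4.61 and 11.1 CPM in FGF19ΔKLB libraries, 1.83, 0.0494 and 0.493 CPM in FGF19WT libraries and 1.70, 4.11 and 2.98 CPM in vehicle libraries. Its mean was 8.07 CPM in FGF19ΔKLB libraries, 0.791 CPM in FGF19WT libraries and 2.93 CPM in vehicle libraries.

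For each of the 9 genes, genes outside the 9 that passed the filter with a mean of at least 1 CPM were ranked by how closely their log2 CPM followed it over the 9 libraries, after each was centred on its own mean, as the root-mean-square difference. The closest profile to Slc45a3 was that of Plin5, a coat protein of lipid droplets, at a difference of 0.143, and the closest to Tln2 was that of Mgst1, a microsomal glutathione transferase, at 0.166. Tlcd2 came closest to Rab11fip1 (0.187), Card10 to Tmem14a (0.329), Fam131c to Col5a3 (0.546) and Ttc38 to 4931406C07Rik (0.216). The profiles of Blnk, Ephb2 and Fam124a, which range widely, had looser matches. For Blnk, Mki67, a marker of dividing cells (0.584), and Egr1 (0.590) were almost level. The closest to Ephb2 was the immunoglobulin gene Igkv12-46 (0.792), followed by Cidea (1.002). Igkv12-46 stood at 0 to 0.164 CPM in treated libraries, so like Ephb2 it rests there on few reads, and little can be read from that match. The closest to Fam124a was Igkc, the kappa light chain constant region (0.972). Among the 9 genes themselves, which that ranking leaves out, Card10 and Ttc38 were the closest pair (0.222), followed by Slc45a3 and Tln2 (0.282). Mki67 stood at 5.87, 6.07 and 6.13 CPM in FGF19ΔKLB libraries, 2.92, 27.2 and 37.1 CPM in FGF19WT libraries and 0.908, 1.48 and 0.704 CPM in vehicle libraries. Egr1 stood at 70.4, 29.3 and 69.1 CPM, at 41.0, 127.5 and 171.6 CPM and at 13.3, 12.5 and 15.9 CPM in the same groups. These likenesses are descriptions over 9 libraries that all genes share, with FGF19WT libraries 2 and 3 among them.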

How the data were processed

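Liver RNA of 9 libraries was analysed, 3 each from db/db mice given FGF19ΔKLB, FGF19WT or vehicle, grouped by sample title. The table that the authors deposited holds expected counts, whole numbers not scaled for depth. For each gene the authors also deposited FPKM values. The submitters' processing notes name Bowtie 0.12.2, HISAT2 2.0 and StringTie 1.3.0 and the build mm8, with no settings. Gene starts of all 9 genes match GENCODE M21 on GRCm38, so coordinates are given on GRCm38. The ends of 7 match too, and those of Fam124a and Tlcd2 differ and are given as deposited. Whether counting used strand is not given in the sources used here.

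A quasi-likelihood model of edgeR 4.0.16 (R 4.3.3) was fitted to the counts of all 9 libraries, using TMM scaling, robust estimation and no term but group, which leaves 6 residual degrees of freedom. The low-count filter of edgeR left 18142 genes. P-values were adjusted over all of them by Benjamini-Hochberg, and a gene was called at an adjusted p under 0.05. The procedure was tested on simulated data. Alternatives were other filters, DESeq2 size factors, DESeq2 1.42.0, limma 3.58.1 on log2(FPKM + 1) and log2(FPKM + 0.1), fits of 6 libraries, the replicate number as a block, libraries left out, and, chosen after seeing the data, counts divided by 4. Replicates of each group differed by more than counting noise.

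The genes named are the 9 themselves, the genes that overlap them and the nearest measured ones on either side, the genes with the closest profiles at a mean of at least 1 CPM, and up to 4 of each list with the smallest p between FGF19ΔKLB and FGF19WT. The 9 genes and all lists were chosen with earlier results of these data known.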

Additional observations from a re-analysis of the deposited data

How the results depend on the processing

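The number of genes called was 0 for FGF19ΔKLB against FGF19WT, 20 for FGF19WT against vehicle and 2 for FGF19ΔKLB against vehicle in edgeR, and it moved widely. In that order of comparisons, DESeq2 called 834, 1743 and 370 genes, limma on log2(FPKM + 1) called 0, 69 and 51, and limma on log2(FPKM + 0.1) called 1, 45 and 26. Fits of the 6 libraries compared called 1, 1 and 292. Leaving out 1 library at a time gave 0 to 3846, 0 to 5221 and 0 to 172, each highest without FGF19WT library 1. Without FGF19WT libraries 2 and 3 there were 7, 20 and 303, and with counts divided by 4, 0, 18 and 4. For FGF19ΔKLB against vehicle, no filter gave 11 and a filter of 5 CPM gave 13. With the replicate number as a block there were 0, 1 and 0 calls. Same-numbered libraries did not deviate together (r from −0.048 to 0.147 over 9 pairs, 1 of them over 0.1), so the numbers were not taken to pair the samples. DESeq2 size factors gave the same counts as TMM.

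The log2 fold changes of the 9 genes changed sign between FGF19ΔKLB and FGF19WT in 8 of 167 values, all in Ephb2, Slc45a3 and Tln2, whose values lie near 0. Against vehicle they changed sign in 0 of 167 values with FGF19WT and in 2 of 167 with FGF19ΔKLB, both in Card10, again near 0. Ephb2 and Tln2 were too low for the FPKM fits and have no value there. The cause of these moves was not tested. Depth limits Ephb2 most, since 4 to 23 counts in a treated library are a few read pairs.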
